A study of Homo sapiens with 6 samples.

Results

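RNA-seq counts were examined for the F-box genes of cells labelled G361, a human melanoma line, in which VprBP had been knocked down. The labels also give LD611 as the source, and only 4 of 10 melanocyte lineage markers were in the table. F-box proteins are the substrate receptors of SCF ubiquitin ligases. The genes were chosen by name, with earlier results of these data known: all protein-coding rows whose symbol begins with FBXO, FBXL or FBXW, together with the F-box genes SKP2 and CCNF and the SCF scaffold genes SKP1 and CUL1. These were 61 of the 21494 genes in the table, of which 59 encode F-box proteins. The study set 3 samples carrying a control shRNA (Control sh) against 3 samples carrying an shRNA to VprBP (VprBP sh), whose gene is DCAF1. As the study describes them, both groups were puromycin-selected G361 cells infected with lentivirus. The knockdown rested on a single shRNA sequence, so that an effect of VprBP and an effect of that sequence cannot be told apart. Nothing states that the 3 samples of a group were separate cultures, and p-values therefore measure only the spread between these samples, which may be technical.

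In an SCF ligase, CUL1 forms the backbone, RBX1 brings the ubiquitin-conjugating enzyme, and SKP1 holds one exchangeable F-box protein that binds the substrate. The letter after FBX names the substrate-binding part: leucine-rich repeats in FBXL, WD40 repeats in FBXW, and other or unrecognised domains in FBXO. NEDD8 attached to the cullin switches the ligase on, the COP9 signalosome removes it, and CAND1 and CAND2 allow one F-box protein to be exchanged for another. VprBP is itself a substrate receptor, but of CUL4 ligases, in which DDB1 takes the place of SKP1. The question put to the data was how the receptors of the other ligase family stood when VprBP was depleted.

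The totals of the deposited estimated counts ran from 18195926 to 26883925 per sample. DCAF1 itself had 797, 971 and 838 normalized counts (counts brought to a common library size by upper quartile scaling) in Control sh and 760, 507 and 481 in VprBP sh, a log2 fold change of -0.58 with a standard error (SE) of 0.17 and an adjusted p of 0.0125 in edgeR's quasi-likelihood test. The groups did not overlap, and the exact two-sided permutation test gave p = 0.1, the smallest that 3 against 3 allows. G361 is the cell line on the labels, which however give LD611 as the source. Of 10 melanocyte lineage markers, 4 were in the table, and their summed level was 199 to 236 (Control sh) and 244 to 308 (VprBP sh) normalized counts. TYR, DCT and SOX10 were not among them, and no Control sh sample had more than 3 counts of MLANA. Of 14 urothelial and basal epithelial markers 12 were in the table, summing to between 226330 and 242130 normalized counts in Control sh and between 30747 and 34093 in VprBP sh. Of these 11 were tested, of which 7 fell (KRT14, UPK1B and TP63 among them) and 3 rose (GATA3, FOXA1 and PPARG). The mitochondrial share of counts was 1.96% to 1.98% (Control sh) and 4.10% to 4.48% (VprBP sh). Both measures moved with the groups, and their part in the results below was not tested. The identity of the cells was not tested either, so that a difference of cells between the groups and the knockdown cannot be told apart. In either group replicates 2 and 3 were far closer to each other than to replicate 1, with a chi-square per degree of freedom over all genes of 2.32 and 2.20 against 13.8 to 23.1. As these are bulk samples, fewer cells of a type and less RNA per cell cannot be told apart.

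Of the 61 genes, 56 had enough counts to be tested. VprBP sh differed from Control sh at an adjusted p under 0.05 and a fold change over 2, here termed called, for 14 of them (25%), with 9 higher and 5 lower. The same rule called 46.4% of all 16756 genes tested and 44.4% of the protein-coding ones, 24.5% of all genes upward and 22.0% downward. The share among the 56 thus lay under the background. A further 26 genes passed the adjusted p at less than a 2-fold change (15 higher, 11 lower), so that 40 of 56 passed it at any fold, where 76.4% of all genes did. The 3 samples of one group lay wholly above the 3 of the other for 42 of 56 genes (75.0%), against 79.5% of all genes. The median log2 fold change was 0.10, where that of all genes was 0.08. The median size of the change, regardless of direction, was 0.61 for the 56 genes, 0.92 for all genes and 0.86 for protein-coding genes. Over 4-fold changes were found for 4 members, all of them lower in VprBP sh: FBXO17, FBXO27, FBXO32 and FBXO2. Without Control sh replicate 1, 14 genes were called, and 18 without VprBP sh replicate 1.

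**Figure D1:**
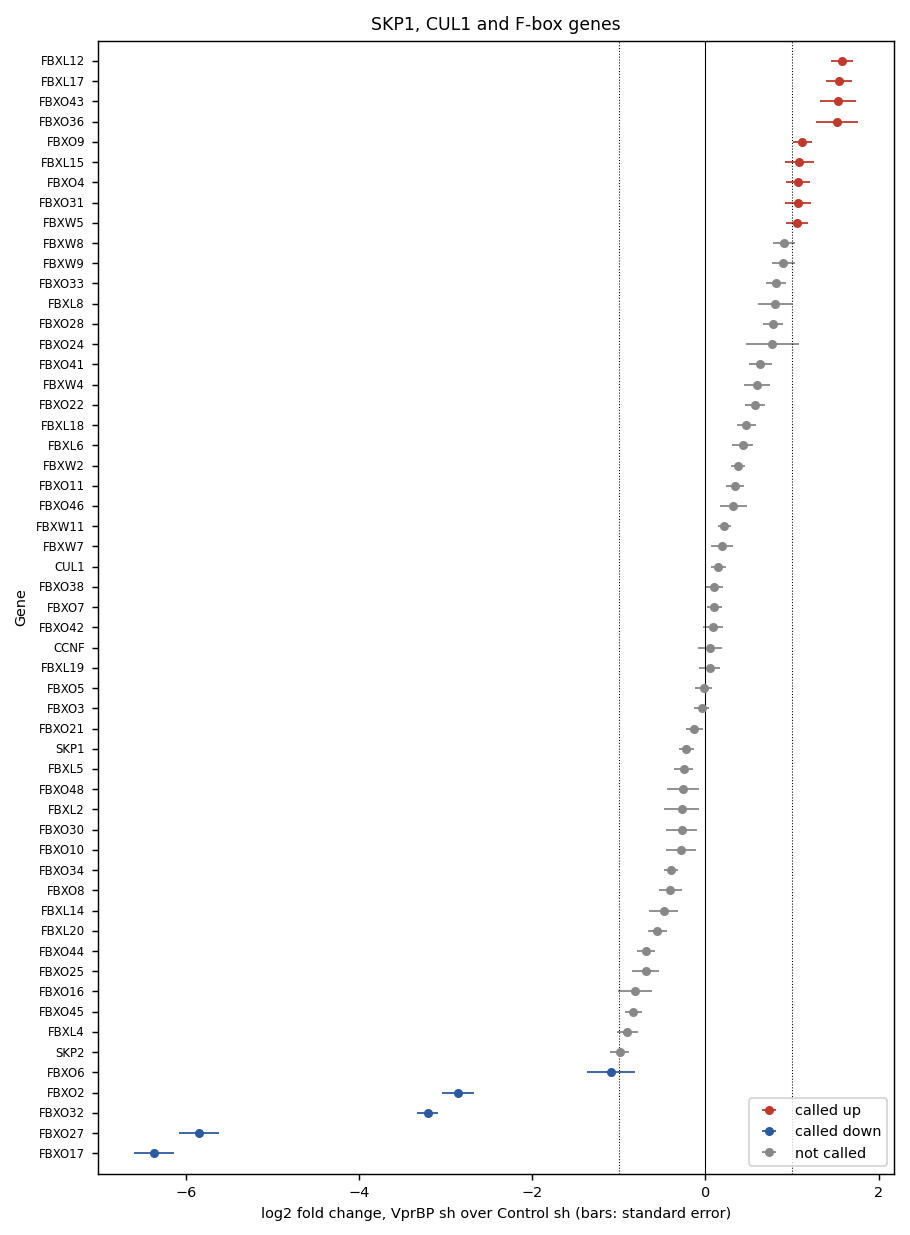
Log2 fold change (VprBP sh over Control sh, x axis) of 55 of the 56 genes tested, one gene per line, with bars for the standard error and dotted lines at a 2-fold change in either direction. The 9 genes called up sit between 1.06 and 1.58, whereas the 5 called down reach from -1.09 to -6.37.

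The 59 F-box genes together held between 0.177% and 0.182% of all counts of a Control sh sample, and between 0.225% and 0.231% of those of a VprBP sh sample. On the scaled values their sum was 42616 ± 248 normalized counts in Control sh (SD, n = 3) and 46620 ± 907 in VprBP sh. The individual receptors moved in opposite directions within this sum. Among the 14 FBXL genes tested, SKP2 included, 3 were called up and 0 down (21.4%, against 46.4% of all genes). Among the 33 FBXO genes tested, CCNF included, 5 were called up and 5 down (30.3%). All 7 FBXW genes tested were higher in VprBP sh (median 0.59 on the log2 scale), where 8859 of all 16756 genes were higher. Of the 7 only FBXW5 was called (14.3%), and under TMM factors or DESeq2 0 were.

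The scaffold genes stayed under 2-fold. SKP1, the adaptor, had 3922, 3890 and 4084 normalized counts in Control sh and 3705, 3142 and 3358 in VprBP sh. The VprBP sh samples were all lower, by a log2 fold change of -0.22 (SE 0.08, adjusted p 0.0361). This was -0.0090 with library size alone, and the adjusted p was above 0.05 without replicate 2 or 3 of either group. CUL1, the backbone, had 1513, 1595 and 1612 normalized counts in Control sh and 1872, 1647 and 1715 in VprBP sh. Its groups did not overlap, but the log2 fold change of 0.15 (SE 0.08, adjusted p 0.130) did not pass the test.

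The receptors of the cell division cycle did not move together. SKP2, which directs the CDK inhibitor p27 to degradation, had 3106, 3812 and 3925 normalized counts in Control sh and 2010, 1761 and 1699 in VprBP sh. All 3 VprBP sh samples were lower, by 1.98-fold (log2 fold change -0.99, SE 0.11, adjusted p 2.50e-05), just short of the 2-fold threshold. SKP2 was called under TMM factors, DESeq2 and no filter on low counts, and without replicate 1 of either group. CCNF, or cyclin F, the founding F-box protein and the receptor of RRM2 and CCP110, had 1299, 1869 and 1925 normalized counts in Control sh and 1900, 1698 and 1696 in VprBP sh. Its groups overlapped, Control sh replicate 1 being the lowest sample, and the log2 fold change of 0.05 (SE 0.14, adjusted p 0.737) turned to -0.04 under TMM factors. FBXO5 (EMI1), the inhibitor of the anaphase-promoting complex (APC/C), stood at 564, 535 and 530 in Control sh and 542, 555 and 514 in VprBP sh, with overlapping groups and a log2 fold change of -0.02 (SE 0.10, adjusted p 0.877). FBXW7, the receptor of cyclin E, MYC and NOTCH, had a log2 fold change of 0.19 (SE 0.13, adjusted p 0.200) and overlapping groups. FBXW11 (β-TrCP2), the receptor of β-catenin and IκBα, was higher in each VprBP sh sample by a log2 fold change of 0.22 (SE 0.07, adjusted p 0.0206), which was 0.12 with TMM factors and 0.10 with DESeq2, where it did not pass the test, nor did it without Control sh replicate 2 or VprBP sh replicate 2 or 3.

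FBXO43 (EMI2), the APC/C inhibitor known from meiosis, was among the called genes. It had 62.6, 43.5 and 56.9 normalized counts in Control sh and 184, 147 and 142 in VprBP sh. The groups were well apart, and FBXO43 rose by a log2 fold change of 1.53 (SE 0.21, adjusted p 9.55e-05). FBXO31 and FBXO4 have both been described as receptors of cyclin D1. FBXO31 had 494, 382 and 412 normalized counts in Control sh and 729, 976 and 988 in VprBP sh, and rose by a log2 fold change of 1.07 (SE 0.15, adjusted p 0.000117). FBXO4 had 148, 142 and 148 in Control sh and 289, 287 and 343 in VprBP sh, and rose by 1.07 on the log2 scale (SE 0.14, adjusted p 5.79e-05). Neither gene had overlapping groups, but both stood under a 2-fold change with TMM factors or DESeq2 and without VprBP sh replicate 3, and neither passed the test against a 2-fold change. FBXO31 was also lost without Control sh replicate 2 and with replicates 2 and 3 summed. FBXO31 belongs to a list of genes that the study chose on these samples, so that its direction is not independent evidence, and it overlaps MAP1LC3B on the opposite strand. Whether the counting used strand is not given in the sources used here.

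F-box proteins that bind the sugar chains of glycoproteins serve the removal of misfolded glycoproteins. Their group, here termed sugar-binding, made up 4 of the 5 decreases. It was taken here as FBXO2, FBXO6, FBXO17, FBXO27 and FBXO44, the last of which was placed in it by sequence. The group was drawn only from genes chosen by name, so F-box genes with other names are outside it. One such gene, NCCRP1, was higher in VprBP sh by 0.60 on the log2 scale (SE 0.20, adjusted p 0.0188), with overlapping groups. All 5 genes of the group were lower in VprBP sh, 4 of them called, where 22.0% of all genes were called down. Their median log2 fold change was -2.86. With at least 10 counts required in every sample, FBXO17 and FBXO27 were not tested, and of the other 3 genes 2 were called, with a median of -1.08. Their summed level went from a range of 2556 to 3065 normalized counts to one of 514 to 615. Without them 10 of 51 genes were called, 9 up and 1 down.

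FBXO17 had 592, 494 and 515 normalized counts in Control sh and 3.35, 8.31 and 6.90 in VprBP sh, the latter from 3, 8 and 9 counts. FBXO27 had 382, 403 and 377 in Control sh and 3.35, 8.31 and 7.67 in VprBP sh, from 3, 8 and 10 counts. Both genes were thus close to the detection limit in every VprBP sh sample and well expressed in every Control sh sample. FBXO17 fell by 6.37 on the log2 scale (SE 0.23, adjusted p 1.24e-08) and FBXO27 fell by 5.85 (SE 0.23, adjusted p 2.26e-08), the largest changes of the 56 genes. FBXO2, which recognises high-mannose chains and is best known from neurons, had 1383, 1078 and 1107 normalized counts in Control sh and 213, 144 and 138 in VprBP sh. It fell by 2.86 on the log2 scale, or 7.24-fold (SE 0.18, adjusted p 5.18e-07). FBXO6 had 206, 111 and 116 in Control sh and 80.4, 67.5 and 56.0 in VprBP sh. Its groups did not overlap, but replicate 1 stood well above the other Control sh samples. The log2 fold change of -1.09 (SE 0.28, adjusted p 0.00525) became -0.75 without Control sh replicate 1. It was -0.96 without VprBP sh replicate 3, and either omission ended the call. The call was also lost with library size alone and in the test against a 2-fold change. FBXO6 and FBXO44 both overlap MAD2L2, which runs on the opposite strand with 4957 counts over the 6 samples and stood at -1.04. The counts of both genes are therefore uncertain. FBXO44, which belongs to the group by sequence, had 501, 470 and 491 in Control sh and 315, 286 and 306 in VprBP sh, a log2 fold change of -0.69 (SE 0.11, adjusted p 0.000219).

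**Figure D2:**
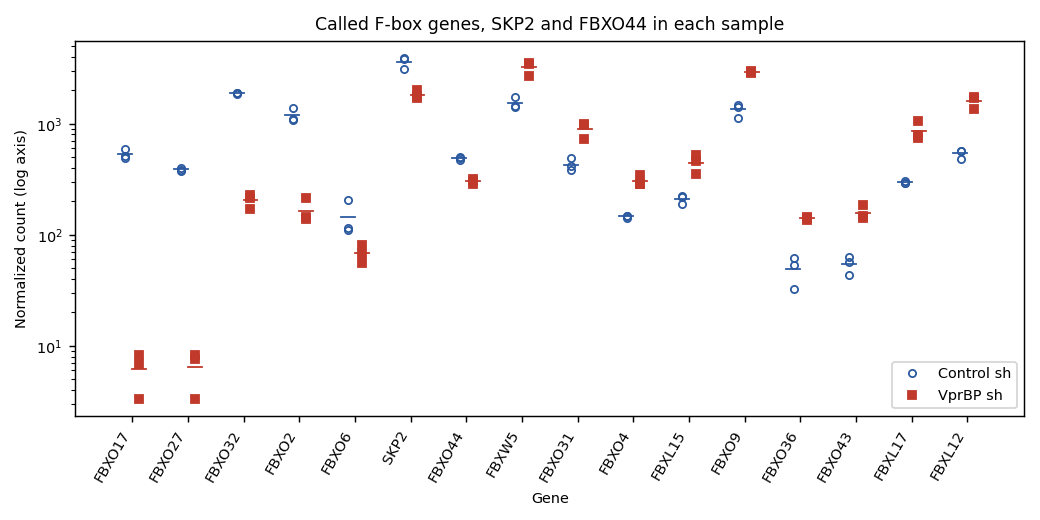
Normalized counts (log axis) of the 14 called genes, SKP2 and FBXO44 in each sample, with open circles for Control sh, filled squares for VprBP sh and short lines for group means. FBXO17 and FBXO27 stand under 10 normalized counts in all 3 VprBP sh samples, and the groups do not overlap in any of the 16 genes.

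The 5 sugar-binding genes lie in 2 clusters. FBXO2 (chr1:11637018-11655785, minus strand), FBXO44 (chr1:11654375-11663327, plus strand) and FBXO6 (chr1:11664200-11674354, plus strand) span 37.3 kb on hg38. FBXO17 (chr19:38941401-38975742) and FBXO27 (chr19:38990714-39032785) lie 15 kb apart, both on the minus strand. FBXO2 and FBXO44 run in opposite directions from starts that face each other, and their promoter windows overlap by 77 bases. Since their gene bodies overlap as well, counts of the pair may be shared where strand was not used. Even so, the log2 ratio of FBXO2 to FBXO44 within a sample was 1.47, 1.20 and 1.17 in Control sh and -0.56, -0.98 and -1.15 in VprBP sh. The difference was -2.18, with no overlap (exact two-sided permutation p = 0.1, the smallest possible, and 0.1 after adjustment over 3 ratios compared). Per kb of exon, FBXO2 was above FBXO44 in Control sh (376 and 138 normalized counts per kb) and below it in VprBP sh (52.2 and 85.7). The log2 ratio of FBXO17 to FBXO27 moved by -0.51, from 0.46 ± 0.17 (SD, n = 3) in Control sh to -0.05 ± 0.09 in VprBP sh (exact permutation p = 0.1, adjusted 0.1).

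To show what these genes share at their starts, the promoters of FBXO2, FBXO17 and FBXO27 are given from RefSeq on GRCh38.p14, each from 250 bases before to 50 bases after the start, on the minus strand, 5′ to 3′, with CpG dinucleotides in capitals. The windows are chr1:11654380-11654679 for FBXO2, chr19:38975693-38975992 for FBXO17 and chr19:39032500-39032799 for FBXO27.
FBXO2: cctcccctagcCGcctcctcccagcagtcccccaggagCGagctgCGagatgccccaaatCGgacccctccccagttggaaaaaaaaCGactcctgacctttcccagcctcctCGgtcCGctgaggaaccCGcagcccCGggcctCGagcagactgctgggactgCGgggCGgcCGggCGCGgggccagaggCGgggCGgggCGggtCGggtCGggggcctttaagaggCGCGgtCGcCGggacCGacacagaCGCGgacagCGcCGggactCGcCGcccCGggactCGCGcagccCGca
FBXO17: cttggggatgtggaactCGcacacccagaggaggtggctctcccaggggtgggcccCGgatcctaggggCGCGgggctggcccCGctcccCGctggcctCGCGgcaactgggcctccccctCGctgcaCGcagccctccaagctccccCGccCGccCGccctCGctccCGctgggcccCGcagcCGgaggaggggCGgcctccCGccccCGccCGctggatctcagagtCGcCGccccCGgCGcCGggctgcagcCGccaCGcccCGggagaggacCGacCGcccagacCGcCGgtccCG
FBXO27: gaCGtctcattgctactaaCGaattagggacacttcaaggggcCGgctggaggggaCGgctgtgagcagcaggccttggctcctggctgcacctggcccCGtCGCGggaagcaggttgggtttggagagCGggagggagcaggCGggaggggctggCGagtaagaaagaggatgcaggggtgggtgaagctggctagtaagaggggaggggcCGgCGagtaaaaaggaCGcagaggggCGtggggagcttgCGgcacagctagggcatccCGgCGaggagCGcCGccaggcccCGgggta
These hold 35, 34 and 20 CpG dinucleotides, where the median of all promoters of the same length is 14. None of the 3 holds any of the 4 motifs searched, which are described further on.

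Genes around the clusters were examined to see how far the decrease extended. Within 300 kb of the centre of FBXO17, 14 other genes were tested, of which 4 were called up and 3 down, their median being 0.45 on the log2 scale. Over all genes 24.5% were called up and 22.0% down. NCCRP1, an F-box gene with another name, was among the 14 at 0.60 and was not called. The decrease ran without interruption over 4 successive genes tested, which were picked out after their values were seen: FBXO17, ENSG00000287271 at -6.09, FBXO27 and ACP7 at -4.85. It was bounded by MRPS12 at 0.09 on one side and PAK4 at 0.82 on the other. Around FBXO2, 7 other genes were tested, of which 1 was called up and 3 down, with a median of -0.98. The next gene beyond FBXO6, MAD2L2, which overlaps FBXO44 and FBXO6 on the opposite strand, stood at -1.04. The shRNA groups differed at many genes across these windows, from DISP3 at 8.97 to NPPB at -9.18.

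**Figure D3:**
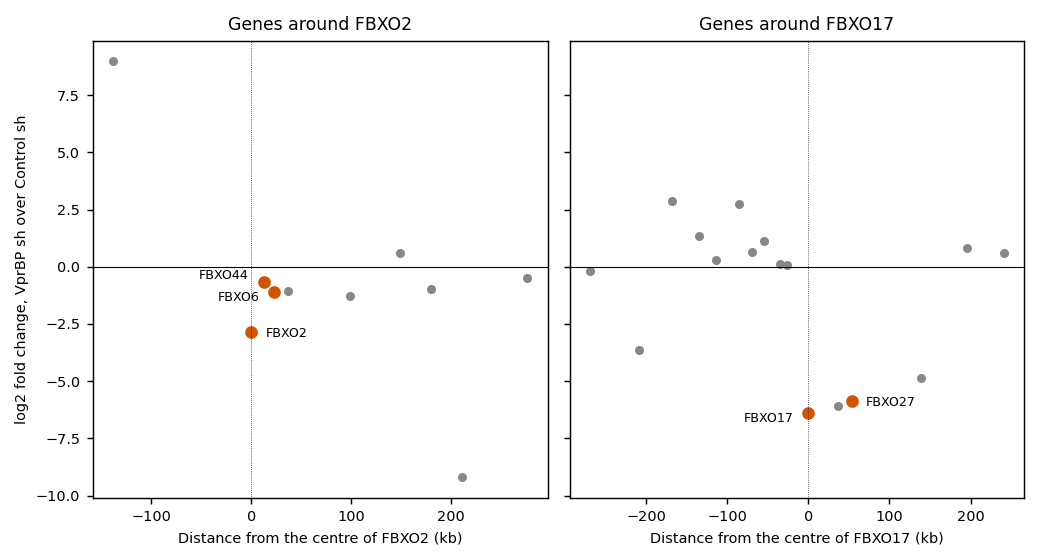
Log2 fold change (VprBP sh over Control sh, y axis) of every gene tested within 300 kb of FBXO2 (left) and FBXO17 (right) against distance in kb (x axis). FBXO2, FBXO44, FBXO6, FBXO17 and FBXO27 are in orange and all other genes, the F-box gene NCCRP1 included, in grey. FBXO17 and FBXO27 form a low stretch with the gene between them and ACP7, and the genes next to it stand at 0.09 and 0.82.

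FBXO32 (atrogin-1), the receptor known from muscle atrophy and a target of FOXO transcription factors, was the remaining decrease. It had 1904, 1858 and 1909 normalized counts in Control sh and 170, 215 and 226 in VprBP sh. The samples of a group were close to one another, and FBXO32 fell by 3.21 on the log2 scale, or 9.24-fold (SE 0.12, adjusted p 1.68e-08). Of its 10 nearest genes tested, 6 were called down and 0 up, with a median of -1.20. The called members did not all share this pattern. The median of the 10 nearest genes was above 0 for 5 of the 9 members called up. It was below 0 for 3 of the 5 called down. Over all genes 22.0% were called down and 24.5% up.

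Leucine-rich repeat receptors made up 3 of the 9 increases. FBXL12, a receptor with CDK inhibitors among its described substrates, had 486, 566 and 570 normalized counts in Control sh and 1364, 1716 and 1756 in VprBP sh. FBXL17, which removes wrongly paired dimers of BTB domain proteins, had 305, 291 and 291 in Control sh and 1062, 743 and 786 in VprBP sh. Each had every VprBP sh sample more than 2-fold above the highest Control sh sample. FBXL12 rose by a log2 fold change of 1.58 (SE 0.12, adjusted p 2.13e-06) and FBXL17 by 1.54 (SE 0.15, adjusted p 8.25e-06). FBXL15, the receptor of the ubiquitin ligase SMURF1, had 221, 219 and 190 normalized counts in Control sh and 349, 526 and 458 in VprBP sh, and rose by 1.09 (SE 0.16, adjusted p 0.000199). The call on FBXL15 was lost with TMM factors, with DESeq2, without VprBP sh replicate 2, with replicates 2 and 3 summed to 1 sample and in the test against a 2-fold change.

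FBXL17 is shown because its promoter is the richest in CpG among the 11 called genes with a promoter sequence, with 45 in the 300 bases of chr5:108382049-108382348 (GRCh38.p14, minus strand, 5′ to 3′, CpG in capitals).
FBXL17: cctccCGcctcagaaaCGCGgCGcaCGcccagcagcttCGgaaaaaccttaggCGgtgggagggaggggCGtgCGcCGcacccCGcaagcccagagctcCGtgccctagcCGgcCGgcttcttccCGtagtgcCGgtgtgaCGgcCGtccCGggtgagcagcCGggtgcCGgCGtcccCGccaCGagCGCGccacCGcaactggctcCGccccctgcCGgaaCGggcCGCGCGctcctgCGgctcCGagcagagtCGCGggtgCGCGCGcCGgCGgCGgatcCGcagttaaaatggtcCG
Its CpG content is above that of 96.5% of all promoters in the RefSeq table. FBXL17 was higher in VprBP sh, and FBXO2 and FBXO17, whose promoters are also rich in CpG, were lower. A link between CpG content and these changes was not tested.

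Other increases were found in FBXO and FBXW genes. FBXO36, of which little is known, had 53.3, 62.0 and 32.2 normalized counts in Control sh and 136, 143 and 142 in VprBP sh. It rose by a log2 fold change of 1.52 (SE 0.24, adjusted p 0.000276), but it lies across TRIP12, which runs on the opposite strand with 27530 counts over the 6 samples, so that its counts are uncertain. FBXO9, a receptor of the mTOR-binding proteins TEL2 and TTI1, had 1117, 1486 and 1429 in Control sh and 2920, 2980 and 2871 in VprBP sh. It rose by 1.12 (SE 0.11, adjusted p 1.01e-05) but was not called in the test against a 2-fold change. FBXW5, which has described roles in both SCF and CUL4 ligases, had 1755, 1456 and 1406 in Control sh and 2695, 3511 and 3419 in VprBP sh. None of these groups overlapped. FBXW5 rose by 1.06 (SE 0.13, adjusted p 3.65e-05), and this call was lost with TMM factors, with DESeq2, without Control sh replicate 3 or VprBP sh replicate 2, with replicates 2 and 3 summed and in the test against a 2-fold change.

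Among the genes below the 2-fold threshold, FBXL4, which restrains mitophagy, came close to it. It had 777, 738 and 671 normalized counts in Control sh and 445, 350 and 375 in VprBP sh (log2 fold change -0.90, SE 0.12, adjusted p 9.42e-05). FBXW8, the receptor that works with CUL7, was near the threshold from the other side, with 386, 326 and 357 in Control sh and 586, 727 and 691 in VprBP sh (0.91, SE 0.12, adjusted p 9.14e-05). With FBXL15, FBXO4, FBXO6, FBXO31, FBXW5 and SKP2, 8 genes lay within 0.1 of a log2 fold change of 1 in either direction, so that the call on each rested on a small margin. FBXO28 was higher by 0.78 (SE 0.12, adjusted p 0.000187), from 808, 973 and 927 to 1785, 1430 and 1446. FBXO22, a receptor of KDM4 demethylases and BACH1, was higher by 0.58 (SE 0.12, adjusted p 0.00120), with 581, 728 and 703 in Control sh and 1064, 1018 and 923 in VprBP sh. FBXO11, the receptor of BCL6, was higher by 0.34 (SE 0.11, adjusted p 0.0150), with 1396, 1227 and 1196 in Control sh and 1813, 1553 and 1471 in VprBP sh, and did not pass with TMM factors, with DESeq2 or without Control sh replicate 2 or 3.

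On the lower side, FBXO45, the partner of MYCBP2, had 1303, 1126 and 1122 normalized counts in Control sh and 694, 633 and 667 in VprBP sh (log2 fold change -0.83, SE 0.10, adjusted p 4.02e-05). FBXL20, known from synapses, had 585, 521 and 539 in Control sh and 380, 388 and 353 in VprBP sh (-0.55, SE 0.11, adjusted p 0.000916). FBXL14, a receptor of SNAI1, had 566, 661 and 560 in Control sh and 317, 481 and 476 in VprBP sh (-0.48, SE 0.17, adjusted p 0.0224). These groups were apart in every case, but FBXL14 stood at -0.27 (adjusted p 0.151) with library size alone and -0.32 without VprBP sh replicate 1, and its adjusted p was 0.0855 without Control sh replicate 2. The iron sensor FBXL5 had 722, 885 and 897 in Control sh and 700, 727 and 676 in VprBP sh. FBXO10, a receptor of BCL2, had 168, 188 and 173 in Control sh and 116, 171 and 147 in VprBP sh. FBXL2 had 98.5, 77.2 and 78.7 in Control sh and 67.0, 64.4 and 78.2 in VprBP sh. The groups of these last 3 genes overlapped, with log2 fold changes of -0.25 (SE 0.11, adjusted p 0.0615), -0.28 (SE 0.17, adjusted p 0.168) and -0.27 (SE 0.20, adjusted p 0.245). FBXL5 passed the adjusted p with TMM factors, with DESeq2 and without Control sh replicate 1. FBXO7, known from the PINK1 and Parkin pathway, had 2038, 2088 and 2162 in Control sh and 2481, 2070 and 2195 in VprBP sh, which also overlapped (0.10, SE 0.09, adjusted p 0.317). Altogether 16 of the 56 genes did not pass the adjusted p, and the groups of 14 of these overlapped, FBXO38 and CUL1 being the exceptions.

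The 5 genes not tested were barely detected. The counts of FBXL16 were 3, 3 and 1 in the Control sh samples and 9, 12 and 8 in those of VprBP sh. FBXL22 had 2, 0 and 0 against 11, 14 and 12, and FBXO15 had 2, 1 and 0 against 4, 9 and 14. None of these exceeded 3 counts in a Control sh sample, and all 3 were called up only where no filter on low counts was used. FBXL13 and FBXW10 had overlapping groups, FBXW10 with 24.6 normalized counts in VprBP sh replicate 1 and under 8 in the other samples.

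Levels can be compared between genes only per length, and here they are normalized counts per kb of the union of exons in GENCODE 44. In Control sh the highest were FBXW5 at 467 ± 57.3, CUL1 at 379 ± 12.8 and FBXO2 at 376 ± 53.1 (SD, n = 3), of which the last 2 did not differ beyond their spread. In VprBP sh they were FBXW5 at 974 ± 136, FBXL12 at 553 ± 74.0 and CUL1 at 420 ± 27.9. FBXO2 went from rank 3 to rank 40 of the 61 genes, FBXO32 from 8 to 49, FBXL12 from 15 to 2 and FBXO9 from 18 to 5. With the longest transcript as length, FBXW5 was again the highest in both groups. SKP2 then had rank 3 and CUL1 rank 4 in Control sh. SKP1 had more normalized counts than FBXW5 (means of 3965 against 1539 in Control sh, 3401 against 3208 in VprBP sh). It ranked lower because its annotated lengths are 12697 and 9386 bases, against 3294 and 2392 for FBXW5. Which transcripts were in use was not examined, so that these ranks hold only for the annotated lengths.

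**Figure D4:**
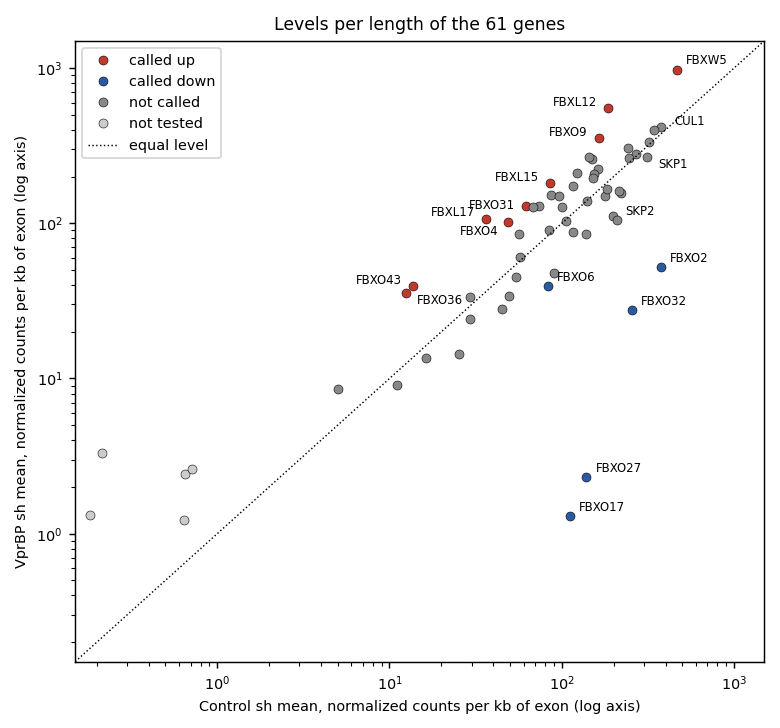
Mean level of each of the 61 genes in Control sh (x axis) and VprBP sh (y axis), in normalized counts per kb of exon on log axes, coloured by call, with the dotted line marking equal levels. FBXW5 is highest in both groups by this length, FBXO17 and FBXO27 lie far under the line, and the 5 genes not tested sit at the lower left.

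Promoter sequences were found for 47 of the 61 genes. Their median CpG number was 29, against 14 over all 35116 promoters in the table, and their median GC content was 68.0% against 58.7%. The 7 promoters of called-up genes had a median of 29 CpG (16 to 45) and the 4 of called-down genes a median of 28 (20 to 35), while 32 of genes not called had a median of 29.5 (8 to 46). These ranges overlapped throughout. Motifs were searched on both strands, and no motif contained another. An E2F motif (TTTGGCGC, TTTCCCGC, TTTCGCGC or TTTGCCGC) was in 2 promoters, of FBXO44 and FBXO9 (4.26%, against 3.32% of all promoters). The CHR motif TTTGAA, known from genes of mitosis, was in the promoters of CCNF and FBXO36 (4.26%, against 15.2%). The CCAAT box was in 14 (29.8%, against 34.6%) and the E-box CACGTG in 4 (8.51%, against 7.26%).

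The remainder of the SCF machinery was examined from lists. Of 26 genes of the SCF core, the neddylation enzymes and the COP9 signalosome, 1 was called up and 3 down (15.4%, against 46.4% of all genes), and the median was -0.03 on the log2 scale. NEDD8, the cullin modifier, had 2732, 3355 and 3298 normalized counts in Control sh and 1498, 1416 and 1488 in VprBP sh. It fell by 1.09 (SE 0.10, adjusted p 4.63e-06). This call was lost when scaling used library size alone and in the test against a 2-fold change. COPS2, a signalosome subunit, fell by 1.23 (SE 0.09, adjusted p 1.47e-06). CAND2 fell by 4.05 (SE 0.37, adjusted p 5.94e-06), from 55.6, 44.6 and 61.6 in Control sh to 3.35, 2.08 and 3.83, but the latter rest on 3, 2 and 5 counts, and CAND2 was not tested where at least 10 counts in every sample were required. GLMN, which blocks RBX1, rose by 1.20 (SE 0.17, adjusted p 0.000134), a call lost in the test against a 2-fold change. RBX1 itself did not pass the adjusted p (0.27, SE 0.12, adjusted p 0.0708).

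Of 9 ubiquitin-conjugating enzymes and cofactors of SCF, 1 was called up and 3 down (44.4%, close to the 46.4% of all genes), and 8 were lower, with a median of -0.68. CKS1B, the cofactor that SKP2 needs for p27, had 3901, 4332 and 4588 normalized counts in Control sh and 1455, 1406 and 1426 in VprBP sh. It fell by 1.58 (SE 0.09, adjusted p 1.68e-07), so that both it and SKP2 were lower in each VprBP sh sample than in any Control sh sample. UBE2D4 rose by 1.93 (SE 0.14, adjusted p 9.63e-07) and UBE2D1 fell by 1.14 (SE 0.12, adjusted p 1.27e-05). The remaining gene called down was UBE2R2. With scaling by library size alone, or in the test against a 2-fold change, UBE2D1 and UBE2R2 were not called, which left 1 gene down.

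Most of the other cullins rose. Of 7, 5 were called up and 0 down (71.4% called, where 46.4% of all genes were called and 24.5% called up). Their median was 1.24 on the log2 scale. Only 4 remained called under DESeq2, without VprBP sh replicate 1 or in the test against a 2-fold change, where CUL4B was lost. CUL7, the partner of FBXW8, had 303, 246 and 256 normalized counts in Control sh and 1409, 1822 and 1801 in VprBP sh, and rose by 2.65 (SE 0.14, adjusted p 1.28e-07). CUL5 rose by 1.42 (SE 0.12, adjusted p 3.91e-06). CUL3, the backbone of the BTB ligases, had 991, 1157 and 1149 in Control sh and 3114, 2723 and 2604 in VprBP sh, and rose by 1.36 (SE 0.10, adjusted p 1.52e-06). The log2 ratio of CUL3 to CUL1 counts within a sample was -0.61, -0.46 and -0.49 in Control sh and 0.73, 0.73 and 0.60 in VprBP sh, a difference of 1.21 between groups that did not overlap (exact permutation p = 0.1, adjusted 0.1). This ratio is free of the scaling between samples, but not of the lengths of the genes.

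**Figure D5:**
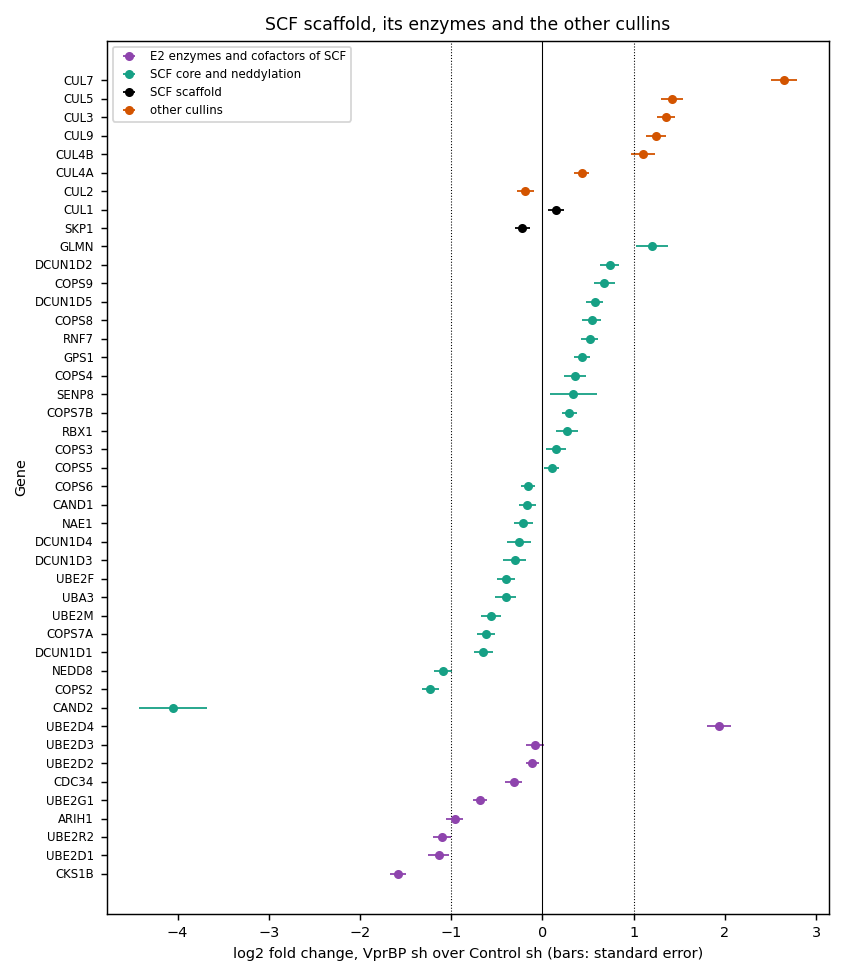
Log2 fold change (VprBP sh over Control sh, x axis) of SKP1, CUL1, the genes of the SCF core and neddylation, SCF enzymes and cofactors, and other cullins, with bars for the standard error and dotted lines at a 2-fold change. CUL7, CUL5, CUL3, CUL9 and CUL4B lie beyond the upper line, whereas CUL1 at 0.15 and SKP1 at -0.22 lie near 0.

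Genes whose proteins are described as F-box substrates were counted last, at the level of mRNA only. Of 32, 5 were called up and 6 down (34.4%), under the 46.4% called among all genes, with a median of 0.13. CCND1, the cyclin D1 gene, fell by 4.53 on the log2 scale, the largest decrease of the list (SE 0.11, adjusted p 1.65e-09). CDKN1A, which encodes p21, fell by 3.24 (SE 0.20, adjusted p 3.53e-07), from 3489, 2228 and 2204 normalized counts in Control sh to 241, 291 and 304. BCL2 had 34.8, 26.1 and 21.8 in Control sh and 218, 175 and 207 in VprBP sh, and rose by 2.86 (SE 0.22, adjusted p 1.81e-06). CCND1 and its described receptors FBXO4 and FBXO31 thus moved in opposite directions, and BCL2 rose where its described receptor FBXO10 did not pass the test. Other pairs differed from that of CCND1. BCL6 was called up at 1.52 (SE 0.21) where its described receptor FBXO11 was also higher, at 0.34. RRM2 was called up at 2.24 (SE 0.11) where its described receptor CCNF did not pass the test. A relation between receptors and substrates was not tested. Protein levels were not measured in these files.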

How the data were processed

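RNA was sequenced from 3 Control sh and 3 VprBP sh samples of cells labelled G361, grouped by their titles. The authors aligned the reads to hg38, quantified them per gene against GENCODE 29 and deposited estimated counts that were neither normalized nor pooled. The labels name a SMARTER kit and the study's methods a strand-specific KAPA kit. Of the values 59.4% are whole numbers, and every gene sums to at least 10. Estimated counts were rounded and tested across all genes in edgeR 4.0.16 (R 4.3.3) by the quasi-likelihood test, with upper quartile factors (quantile 0.75), the filter on low counts at a minimum of 10, and Benjamini-Hochberg adjustment. Calls required an adjusted p under 0.05 together with a change over 2-fold. SE was obtained by dividing the log2 fold change by the root of F. Totals were 18195926 to 26883925 counts per sample, and the coefficient of variation between samples of a group in edgeR's common estimate was 0.126. The SE includes the spread between samples of a group as estimated in the fit, not counting error alone.

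The members and gene lists were chosen with earlier results of these data known. Named genes were members with a textbook role, sugar-binding members, called members whose higher group averaged 50 or more normalized counts, members within 0.1 of a log2 fold change of 1, the 3 highest per length, members with at most 3 counts in a group, and up to 3 called genes of each list. A few further list genes were named beside these, BCL6 and RRM2 among them. DCAF and KLHL genes, receptors of CUL4 and CUL3 ligases, were only counted.

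Alternatives were TMM factors, library size alone, DESeq2 1.42.0, limma-voom (limma 3.58.1), other filters, testing against a 2-fold change, a replicate block, summing replicates 2 and 3, and leaving out each sample. The script was tested on simulated data. Lengths and overlaps came from GENCODE 44, in which 59 of the 61 members have the deposited coordinates. Of the 61, 44 overlap another gene and 19 one on the same strand, and such counts are uncertain. Promoters came from RefSeq (GRCh38.p14). Protein sequences were not used here, and the values of 1 member are not reported here although it is included in the counts.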

Additional observations from a re-analysis of the deposited data

How the results depend on the processing

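Which F-box genes passed the 2-fold threshold depended on the scaling. Members called up were 9, and 5 with TMM factors, 5 with DESeq2 and 4 in the test against a 2-fold change. With replicates 2 and 3 summed they were 6, without FBXL15, FBXO31 and FBXW5. Members called down were 5, and 3 with at least 10 counts in every sample, which removed FBXO17 and FBXO27. That filter left 2694 genes called up and 1996 called down in all. Over all genes the median was 0.08 on the log2 scale with upper quartile factors, 0.29 with library size alone, -0.01 with TMM and -0.04 with DESeq2, and that of the members moved alongside. Calls were made in all 15 alternatives for 6 members: FBXL12, FBXL17, FBXO2, FBXO32, FBXO36 and FBXO43. Leaving out 1 sample gave 7 to 11 members called up and 4 to 7 called down. Without VprBP sh replicate 1, SKP2, FBXL4, FBXL8 and FBXW9 were also called, and without VprBP sh replicate 3, FBXO31, FBXO4 and FBXO6 were lost. DCAF1 was at -0.37 with library size alone and -0.45 with replicates 2 and 3 summed, at both of which its adjusted p was no longer under 0.05, and between -0.81 and -0.46 with a sample left out, where the adjusted p passed 0.05 without Control sh replicate 2. It was under 2-fold in all of these. The direction of 8 members near 0 turned. CCNF was at -0.041 with TMM, -0.064 with DESeq2 and -0.10 to 0.16 with a sample left out, and FBXL19 at -0.046, -0.070 and -0.023 to 0.18, and at -0.041 with replicates 2 and 3 summed. FBXO42 was at -0.010 with TMM, -0.035 with DESeq2 and -0.0057 to 0.15 with a sample left out. FBXO38 (-0.018) and FBXO7 (-0.021) turned with DESeq2, and FBXO21 (0.085), FBXO3 (0.17) and FBXO5 (0.19) with library size alone, FBXO5 also with a sample left out (-0.042 to 0.014). The cause of these changes was not tested. Samples with the same replicate number did not deviate together (r = -0.145, -0.0298 and -0.106 over 13320 genes), and the replicate block called the same 14 members, 9 up and 5 down, and 7686 genes in all.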

Other observations

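Receptors of related kinds were counted beside the FBXO, FBXL and FBXW genes. Of 9 F-box genes with other names 8 were in the table and 7 tested. LMO7 alone was called (14.3% of the 7, against 46.4% of all genes). It had 471, 453 and 509 normalized counts in Control sh and 1171, 1095 and 1072 in VprBP sh, a log2 fold change of 1.22 (SE 0.10, adjusted p 2.35e-06 in edgeR). BTRC, or β-TrCP1, the close relative of FBXW11, had 466, 469 and 433 in Control sh and 566, 472 and 519 in VprBP sh, and did not pass the test (0.19, SE 0.11, adjusted p 0.149). KDM2A, a histone demethylase with an F-box, was lower by 0.47 (log2 fold change -0.47, SE 0.08, adjusted p 0.000495).

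Of 26 KLHL genes tested, which encode receptors of CUL3 ligases, 5 were called up and 4 down (34.6%, against 46.4% of all genes), with a median log2 fold change of 0.26. Of 13 DCAF genes tested, which encode receptors of CUL4 ligases as DCAF1 does, 2 were called up and 2 down (30.8%, also against 46.4%), with a median of -0.31. The difference of either family from the F-box genes was not tested.

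Of 12 genes of the APC/C, the ligase that FBXO5 and FBXO43 restrain, 0 were called up and 2 down in edgeR. This was 16.7%, against 46.4% of all genes. CDC27 had 2570, 3132 and 3080 normalized counts in Control sh and 1236, 934 and 921 in VprBP sh, and fell by 1.51 on the log2 scale (SE 0.13, adjusted p 4.66e-06). ANAPC1 fell by 1.10 (SE 0.12, adjusted p 1.70e-05). That call was lost in the test against a 2-fold change and with scaling by library size alone, which called 1 gene up and 1 down. Among 4 markers of proliferation, MKI67, TOP2A, CCNB1 and PCNA, 0 were called and 1 passed the adjusted p in edgeR. Of all genes, 46.4% were called and 76.4% passed it. Summed levels of the 4 markers were 27164 to 32057 (Control sh) and 22526 to 28000 (VprBP sh) normalized counts.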
